A study of Mus musculus with 2 samples.

Results

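Neutrophils of a mouse pancreatic ductal adenocarcinoma (PDAC) allograft were described in 2 single-cell RNA-seq libraries of sorted tumour stroma. All host mice had the genotype p16-CreERT2/R26-LSL-tdTomato, in which Cre made under p16 control removes a stop cassette and leaves tdTomato on, so both groups carry both alleles. Cells sorted as tdTomato positive gave 1 library (Tom positive) and cells sorted as tdTomato negative gave the other (Tom negative). The number of mice, their age, the time of Cre induction and any pooling were not given in the sources used here. A barcode was taken as a neutrophil when it had at least 1000 unique molecular identifiers (UMIs), at least 500 genes and at most 10% mitochondrial UMIs, S100a8 plus S100a9 at 10000 or more on the CPM scale (counts scaled to a common total), at least 1 Csf3r UMI, and C1qa, C1qb and Col1a1 together under 1000 CPM. This found 38 barcodes in the Tom positive and 115 in the Tom negative library, 153 of the 11042 barcodes that passed the UMI, gene and mitochondrial limits and of 21172 deposited. S100a8, S100a9, Csf3r, C1qa, C1qb and Col1a1 chose the cells, so their levels are given as a description.

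Neutrophils are short-lived granulocytes made in the bone marrow under granulocyte colony-stimulating factor, whose receptor is Csf3r. They store proteases and antimicrobial proteins in granules that are filled in order during maturation, and they reach tissue by following chemokines through receptors such as Cxcr2. In tumours they are known to take up states with strong cytokine and chemokine expression, and pancreatic tumours are known for recruiting them. Retnlg is typical of mature circulating mouse neutrophils, Il1b encodes the cytokine interleukin-1 beta, and Acod1 encodes the enzyme that makes itaconate.

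The 38 Tom positive neutrophils were 0.871% (95% exact binomial interval 0.617 to 1.19) of 4365 passing barcodes, and the 115 Tom negative ones were 1.72% (1.42 to 2.06) of 6677. The ratio of the shares was 0.505 (exact conditional interval 0.341 to 0.735). With 1 library per group there was no test between groups, and every interval here holds counting error only. The ratio was below 1 under all 12 other settings of the filters, between 0.312 and 0.692. The sort gates set which cells entered each library, and their part in the shares was not tested.

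Neutrophils were small libraries of RNA. They had a median of 3992 UMIs and 1336 genes in the Tom positive and 2940 UMIs and 1041 genes in the Tom negative library, against 24603 and 21561 UMIs in the other passing barcodes. Mitochondrial UMIs were a median of 0.460% and 0.631%, against 3.47% and 3.30%. Although 3660 barcode sequences occurred in both libraries, none belonged to a neutrophil. Scrublet, a doublet caller, marked 63 and 97 passing barcodes and no neutrophil.

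In neutrophils, 5 marker genes that did not choose the cells were also higher than in the other barcodes. Retnlg and Acod1 among them are state genes, and the lists were chosen with earlier results known, so these levels are a description. Cxcr2, the receptor for Cxcl2 and related chemokines, stood at 372 and 258 CPM in neutrophils (Tom positive first, here and below), against 1.25 and 1.35 CPM in the other barcodes. Retnlg stood at 1839 and 2175 CPM (others 4.37 and 6.20), and Acod1 at 1797 and 2312 CPM (others 11.6 and 19.6). Il1r2, a decoy receptor for interleukin-1, was at 2144 and 1681 CPM (others 110 and 173). Hdc, which encodes the enzyme that makes histamine, was at 1224 and 1214 CPM (others 17.7 and 9.45). A higher level was common among genes: 44.9% of the 1272 genes at 100 CPM or more in both libraries were over 2-fold higher in neutrophils.

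Markers of other leukocytes were low. All 6 T or NK cell markers were at 0 in both libraries. Without C1qa and C1qb, which the rule capped and which chose the barcodes compared, the other 6 macrophage markers summed to 122 and 200.5 CPM, against 10010 and 7562 CPM in barcodes high in C1qa and C1qb. The 6 monocyte markers summed to 359 and 678 CPM, against 8576 and 6834 CPM in barcodes chosen by their Ccr2 and F13a1 UMIs, 2 of the 6 genes. Fibroblast genes were present: without Col1a1, which the rule capped, the other 6 markers summed to 2412 and 2590 CPM, against 26432 and 28358 CPM in all other barcodes, and none of the 6 was at 0. Col3a1, a fibrillar collagen gene, had a UMI in 38 of 38 and 113 of 115 neutrophils, and stood at 1200 and 1387 CPM, above the 413 and 580 CPM of the C1q barcodes. The part of free RNA in these values was not tested.

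**Figure D1:**
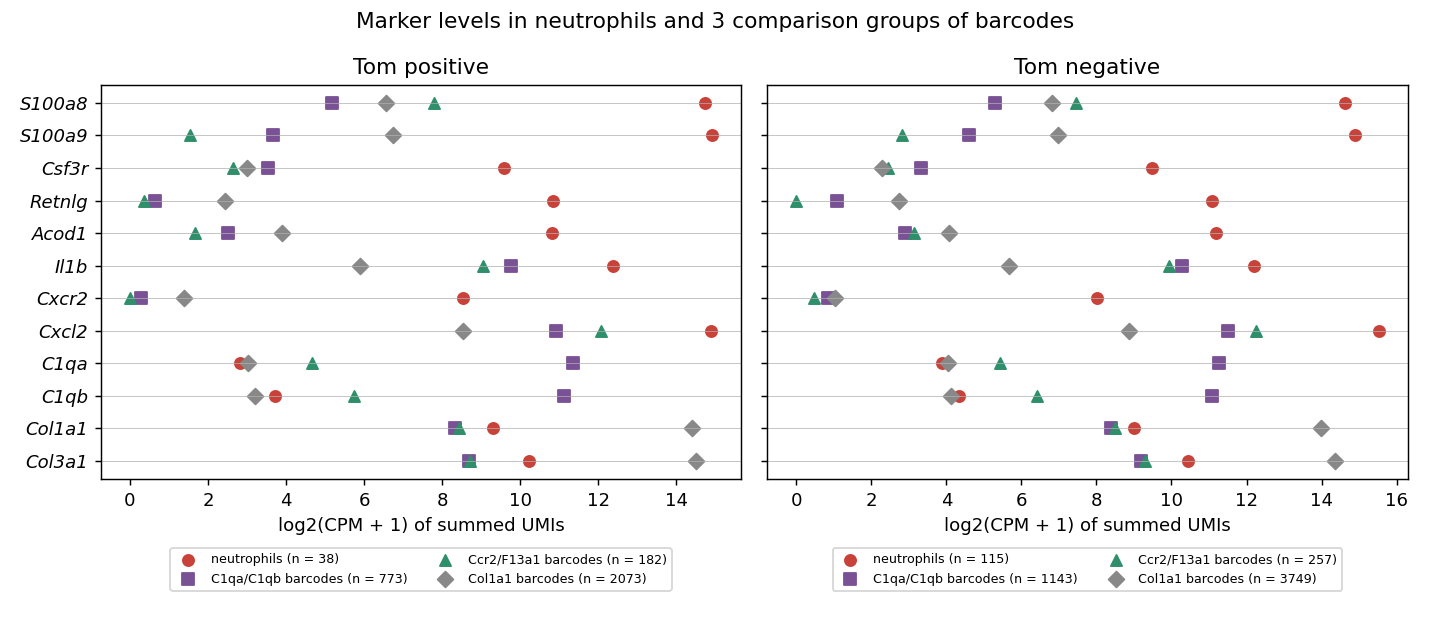
Levels of 12 genes, as log2(CPM + 1) of summed UMIs, in neutrophils, in C1qa/C1qb, Ccr2/F13a1 and Col1a1 barcodes of the Tom positive (left) and Tom negative (right) library. Neutrophils lie to the right of the other groups for S100a8 to Cxcl2 and far to the left of the C1qa/C1qb barcodes for C1qa and C1qb; 6 of the 12 genes chose the cells.

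The limit on C1qa, C1qb and Col1a1 removed more barcodes than it kept in the Tom positive library. It alone excluded 63 Tom positive and 108 Tom negative barcodes, 60 and 93 of them through Col1a1 alone. Those just outside, just above 1000 CPM of the 3 genes together, had Retnlg at 199 CPM (17 Tom positive) and 950 CPM (37 Tom negative) and Il1b at 5930 and 4769 CPM. Those just inside, at 800 to 1000 CPM, had Retnlg at 1118 and 995 CPM and Il1b at 5312 and 4511 CPM. A further 8 and 55 barcodes lacked only the Csf3r UMI.

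Azurophil granule genes were at or near 0, while tertiary granule genes were present. Of the 5 azurophil granule genes measured, which are made at the promyelocyte stage, Elane, Mpo, Ctsg and Ms4a3 were at 0 UMIs in both libraries, and Prtn3 was at 24.4 and 8.24 CPM. A count of 0 over all neutrophils allows up to 18.3 and 8.24 CPM. Among specific granule genes, Camp and Itgb2l were at 0 in both, and Lcn2, which encodes an iron-siderophore binding protein, was at 341 and 574 CPM. Of 10 tertiary granule and secretory genes, 9 were at 100 CPM or more in both libraries, among them Mmp9, which encodes gelatinase B, at 548 and 395 CPM, and Fpr1, a receptor for formylated peptides, at 445 and 437 CPM.

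Fth1, Cxcl2, S100a9 and S100a8 took the most UMIs in both libraries. Fth1, the ferritin heavy chain, held 3.89% and 5.10% of neutrophil UMIs, and Cxcl2, a ligand of Cxcr2, held 3.05% and 4.70%. Of the calprotectin subunits, which chose the cells, S100a9 held 3.11% and 3.01% and S100a8 held 2.74% and 2.53%. Cxcl2 was 34.6-fold above the other barcodes in each library. Its level per cell ran from 647 through a median of 28537 to 94497 CPM in Tom positive and from 0 through 38643 to 131307 CPM in Tom negative neutrophils, so the libraries overlapped widely.

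The state genes varied widely between cells of each library. Retnlg ran from 0 through a median of 273 to 13357 CPM per cell in Tom positive and from 0 through 368 to 33733 CPM in Tom negative neutrophils, with 16 of 38 and 53 of 115 cells at 0. Il1b ran from 0 through 4169 to 16500 CPM and from 0 through 3514 to 26713 CPM. Acod1 ran from 0 through 1521 to 7968 CPM and from 0 through 1526 to 10618 CPM. S100a8 plus S100a9 ran from 10627 through 44042 to 178846 CPM and from 10048 through 39624 to 237446 CPM, the lower end being set by the rule.

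**Figure D2:**
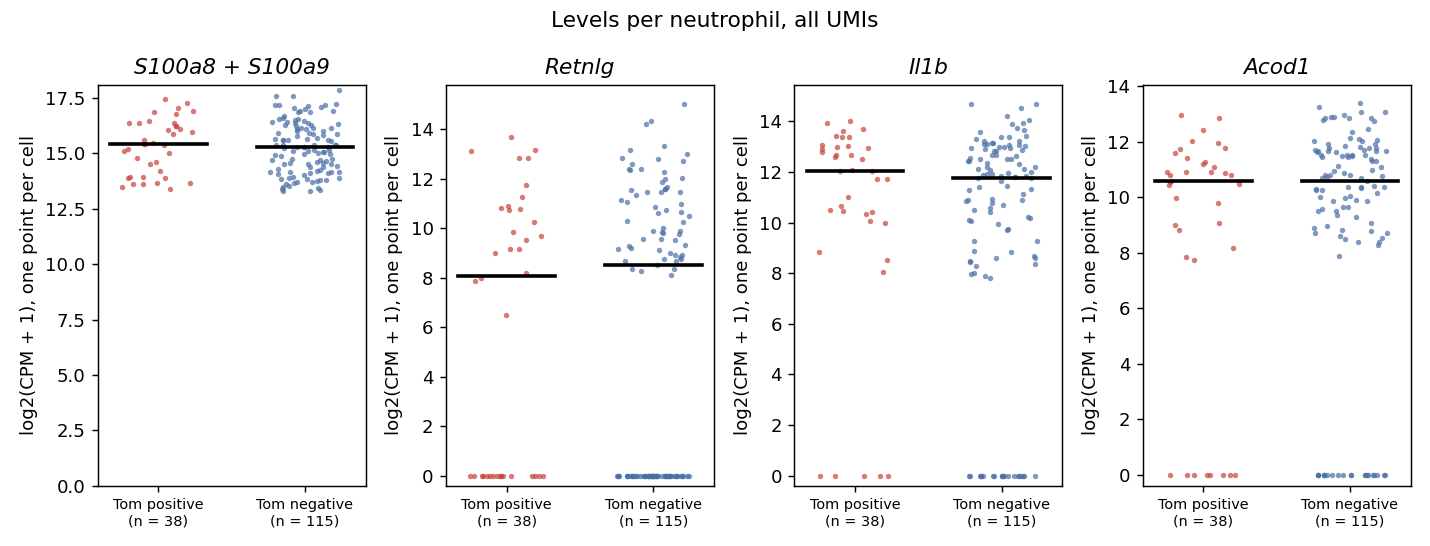
Level per cell, as log2(CPM + 1) of all UMIs, of S100a8 plus S100a9, Retnlg, Il1b and Acod1 in 38 Tom positive and 115 Tom negative neutrophils; black bars are medians. The libraries overlap, the highest cells are Tom negative (Retnlg up to 13357 and 33733 CPM), and 16 and 53 cells lie at 0 for Retnlg.

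To compare libraries at equal depth, each cell was thinned at random to 1000 UMIs, and a cell was called high for a gene at or above the median count over both libraries and at least 1 UMI. The start of high was 1 UMI for Retnlg, 3 for Il1b and 2 for Acod1, so the classes are ranges and not cell types, and 24 Tom positive and 71 Tom negative cells lay 1 UMI below it for Retnlg. Retnlg-high cells were 36.8% (14 of 38, interval 21.8 to 54.0) of Tom positive and 38.3% (44 of 115, 29.4 to 47.8) of Tom negative neutrophils. Il1b-high cells were 55.3% (38.3 to 71.4) and 55.7% (46.1 to 64.9). Acod1-high cells were 47.4% (31.0 to 64.2) and 51.3% (41.8 to 60.7). Each pair of intervals overlapped, and intervals this wide do not show that the libraries are alike. At 1000 UMIs, Retnlg, Il1b and Acod1 had a UMI in 36.8%, 73.7% and 63.2% of Tom positive neutrophils, against 1.11%, 7.09% and 3.62% of Tom positive Col1a1 barcodes, and all UMIs gave 57.9%, 86.8% and 78.9% in the neutrophils.

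**Figure D3:**
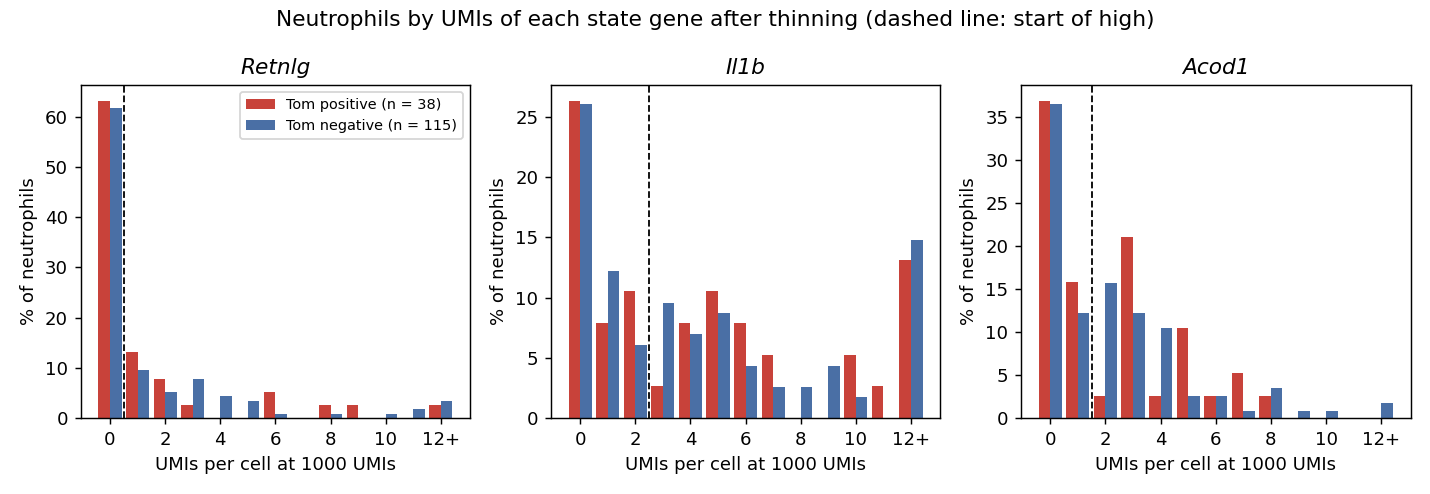
Share of neutrophils by the UMIs of Retnlg, Il1b and Acod1 left after thinning to 1000 UMIs per cell, for 38 Tom positive and 115 Tom negative cells; the dashed line is the start of high and the last bar gathers 12 UMIs or more. Retnlg is at 0 in 24 and 71 cells, and Il1b and Acod1 spread over more counts.

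The 3 genes did not mark 1 common axis. Across cells the rank correlation (Spearman) of Il1b with Acod1 was 0.20 in 38 Tom positive and 0.34 in 115 Tom negative neutrophils. Retnlg with Acod1 gave 0.01 in both, and Retnlg with Il1b gave 0.18 and -0.08. Acod1-high cells were 65.6% of Il1b-high and 33.3% of Il1b-low cells in the Tom negative library, and 57.1% and 35.3% in the Tom positive one. All 8 combinations of high and low occurred in each library, each in 2 to 8 Tom positive and 6 to 25 Tom negative cells. Counts of genes in 1 cell share its library and depth, and these correlations are descriptions. Retnlg was at 0 in 24 of 38 and 71 of 115 cells at this depth. Its value with Il1b in Tom positive cells was -0.0036 with another random draw. Low values from such counts do not show that the 3 genes lack a common axis. The gene lists described next were picked for each state gene after all 20 lists were seen, so their counts are no independent evidence.

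Cells high in Retnlg had more S100a9 and less Tnf and Il1a in both libraries. S100a9 stood at 53577 CPM in Retnlg-high and 15658 CPM in Retnlg-low Tom positive cells, and at 38099 and 24909 CPM in Tom negative cells. Cxcr2 stood at 585 against 226 CPM and 361 against 191 CPM. Tnf, which encodes tumour necrosis factor, stood at 15.0 against 226 CPM and 34.7 against 218 CPM, and Il1a at 240 against 1025 CPM and 660 against 1431 CPM. The 15.0 CPM of Tnf lies below the 18.3 CPM that a count of 0 over all Tom positive neutrophils allows, so it rests on very few UMIs. Past 1.5-fold from the median gene in both libraries were 6.55% of 1373 genes upward and 9.03% downward. Of 7 mature circulating-type genes tested, 5 were higher in Tom positive and 6 in Tom negative Retnlg-high cells, with medians of 1.19 and 0.49 on the log2 scale, and 2 passed 1.5-fold upward in both. Those 2 were Cxcr2 and Pglyrp1, a peptidoglycan recognition protein gene. This list was not particular to Retnlg-high cells. In Il1b-high cells all 8 of its genes tested were higher in both libraries, with medians of 1.34 and 0.43, and 2 passed 1.5-fold upward in both. The 16 interleukin-1 and activation genes were mixed: 8 were higher in Tom positive and 4 in Tom negative Retnlg-high cells, with medians of -0.12 and -0.22. Past 1.5-fold in both libraries, Osm, which encodes oncostatin M, was higher, and Il1a, Tnf, Icam1 and Csf1 were lower.

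Cells low in Il1b had more of the hypoxia-response genes. The genes ranked most opposite to Il1b were Bnip3, a mitophagy receptor gene (-0.39 in Tom positive and -0.37 in Tom negative), Hilpda, a lipid droplet protein gene (-0.38 and -0.34), Ero1l, an endoplasmic reticulum oxidase gene (-0.37 and -0.33), and the importin gene Kpna4 (-0.37 and -0.33). Hilpda stood at 1236 CPM in Il1b-high and 2535 CPM in Il1b-low Tom positive cells, and at 1321 and 2151 CPM in Tom negative cells. Of 17 glycolysis and hypoxia genes, 2 were higher in Tom positive and 4 in Tom negative Il1b-high cells, with medians of -0.75 and -0.29. Past 1.5-fold lower in both were 4 of them, against 10.9% of 1401 genes overall: Slc2a3 and Hk2, of glucose uptake and phosphorylation, P4ha1, a collagen prolyl hydroxylase subunit, and Vegfa, a vascular growth factor. Of 16 tumour neutrophil genes 5 were lower in both, with medians of -1.04 and -0.50. Among them Hmox1, haem oxygenase 1, stood at 81.7 against 1056 CPM and 398 against 1551 CPM.

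Several chemotactic receptor and tertiary granule genes were higher in Il1b-high cells. Fpr1 stood at 633 CPM in Il1b-high and 166 CPM in Il1b-low Tom positive cells, and at 575 and 223 CPM in Tom negative cells. Ltb4r1, the leukotriene B4 receptor, stood at 204 against 30.2 CPM and 149 against 41.9 CPM. Of 8 chemotactic receptors 4 passed 1.5-fold upward in both libraries, Fpr1, Fpr2, Ltb4r1 and C5ar1, as did 4 of 9 tertiary granule and secretory genes (Mmp9, Hp and again Fpr1 and Fpr2) and 8 of 20 neutrophil identity genes, against 11.9% of all 1401 genes. The identity list includes S100a8 and S100a9, which chose the cells, so its count is a description only. Of 5 specific granule genes Lcn2 and Cd177 passed it upward and Chil3 downward, and no azurophil granule gene was high enough to be tested. The genes ranked closest to Il1b were Abtb2 (0.50 and 0.39), Antxr2 (0.40 and 0.35), the complement C5a receptor C5ar1 (0.38 and 0.33), the cystine transporter Slc7a11 (0.39 and 0.32) and G0s2 (0.47 and 0.31), an inhibitor of fat breakdown. Il1b-high cells also had a higher median of S100a8 plus S100a9, 60210 against 42887 CPM and 48916 against 32283 CPM, and more UMIs, 4282 against 3670 and 3112 against 2608. The part of depth in these differences was not tested.

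The genes ranked closest to Acod1 were Nfkbia, which encodes the inhibitor I-kappa-B alpha (0.39 and 0.36), Tnfaip3, which encodes the A20 ubiquitin-editing enzyme (0.34 and 0.37), Slfn2 (0.41 and 0.30), Cxcl2 (0.30 and 0.30), Ccrl2 (0.29 and 0.40), a chemerin-binding receptor, Abtb2 (0.46 and 0.26), Nfkbiz (0.26 and 0.32) and Clec4e (0.30 and 0.23), a receptor for mycobacterial lipids. Some of these values were unstable: with another random draw the Tom positive value was 0.19 for Tnfaip3 and 0.041 for Slfn2, and at 2000 UMIs it was 0.061 for Tnfaip3, while the Tom negative value for Abtb2 was 0.023. Nfkbia stood at 3221 CPM in Acod1-high and 1827 CPM in Acod1-low Tom positive cells, and at 4020 and 2495 CPM in Tom negative cells. Of 16 interleukin-1 and activation genes, 12 were higher in Tom positive and all 16 in Tom negative Acod1-high cells, with medians of 0.57 and 0.79. Past 1.5-fold upward in both were 6 of them, against 4.74% of 1328 genes. Jun, an AP-1 subunit, was at 445 against 1556 CPM and 570 against 1151 CPM, and 4.29% of genes passed 1.5-fold downward.

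**Figure D4:**
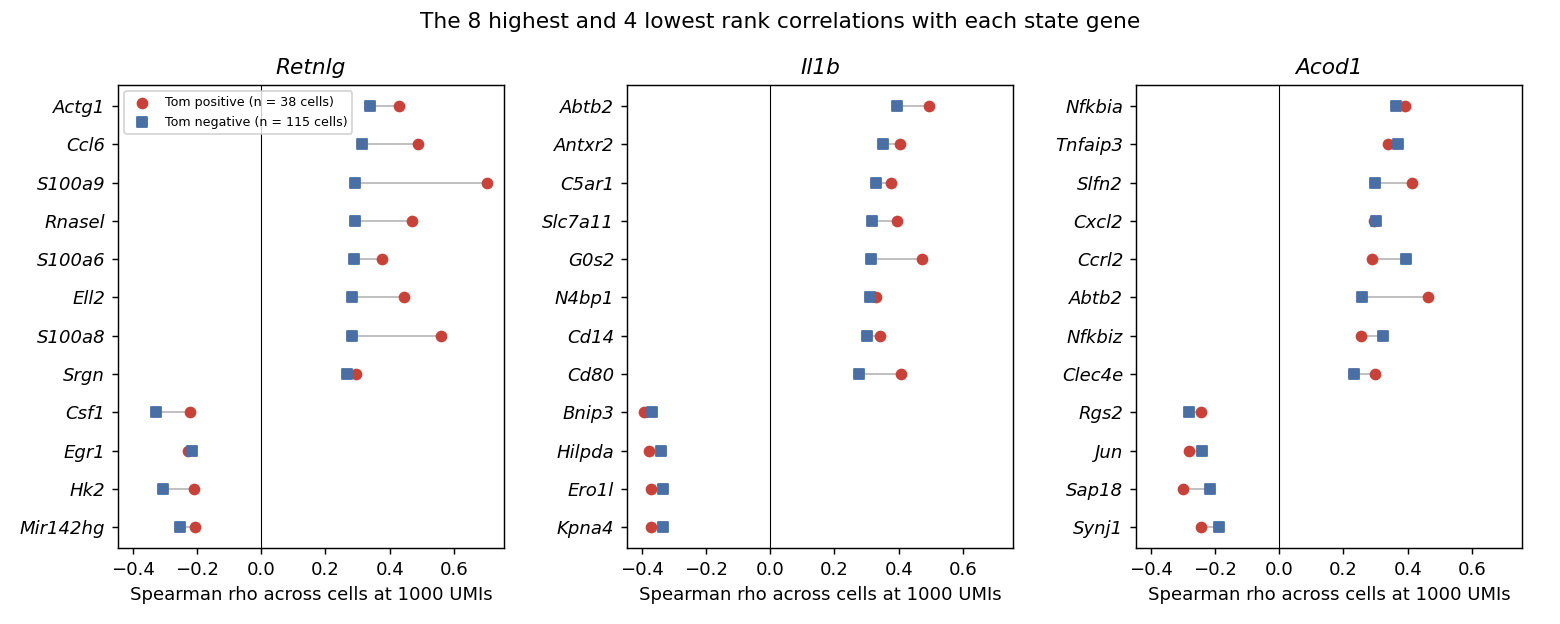
Spearman rank correlations with Retnlg, Il1b and Acod1 across 38 Tom positive (circles) and 115 Tom negative (squares) neutrophils at 1000 UMIs, for the 8 highest and 4 lowest genes ranked by the weaker library. Since the genes were ranked on these cells, equal signs in both libraries follow from the choice; S100a9 with Retnlg is the farthest right, at 0.70.

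The barcodes that the C1qa, C1qb and Col1a1 limit alone excluded were not used for that ranking. In 63 Tom positive and 108 Tom negative such barcodes, all 8 genes ranked with Il1b and all 4 ranked against it kept their sign in both libraries, as did all 8 and 4 for Acod1. For Retnlg 6 of 8 and 1 of 4 did. The values for Il1b were 0.17 to 0.44 and 0.16 to 0.39 for the genes with it. Those for Acod1 were 0.071 to 0.43 and 0.015 to 0.45 for the genes with it, and -0.29 to -0.060 and -0.15 to -0.0022 for those against it, so some were near 0. These barcodes come from the same 2 libraries and are not replicates.

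Promoters of the genes ranked with Acod1 are shown because several are textbook NF-kB targets. The NF-kB motif was GGGA, then any 4 bases, then CC, searched on both strands in the 250 bases before each start (RefSeq, GRCm38.p6). These letters were found for Nfkbia, Tnfaip3, Cxcl2 and Ccrl2, 4 of the 7 genes with a promoter sequence at hand, and for Acod1. They were found for 0 of 7 genes ranked with Retnlg, 1 of 7 ranked with Il1b, and 19.7% of all genes (17.6% of all promoters). A match is a description of letters and not of binding. The stretches below lie upstream of the annotated genes, each 5′ to 3′ on the gene's strand, with 1 match per gene in capitals (on the opposite strand for Nfkbia and Ccrl2). Nfkbia, Cxcl2 and Ccrl2 held 2 matches each. The second lies 212 bases before the start for Nfkbia, outside the stretch, overlaps the first on the opposite strand for Cxcl2, and lies 56 bases before the start for Ccrl2, in lower case in its stretch.
Acod1, chr14:103046932-103046976, plus strand: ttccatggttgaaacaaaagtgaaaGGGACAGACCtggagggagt
Nfkbia, chr12:55492648-55492701, minus strand: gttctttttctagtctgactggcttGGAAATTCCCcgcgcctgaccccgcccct
Cxcl2, chr5:90903777-90903836, plus strand: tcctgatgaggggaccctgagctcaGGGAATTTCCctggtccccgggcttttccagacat
Ccrl2, chr9:111057552-111057611, minus strand: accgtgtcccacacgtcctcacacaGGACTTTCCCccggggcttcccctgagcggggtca

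The motifs TGANTCA (AP-1) and TTNNGNAA (C/EBP) were found for 1 and 4 of the 7 genes with Acod1, against 7.82% and 40.3% of all genes.

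The reporter set the libraries apart as sorted, while the p16 gene rested on few UMIs. tdTomato had a UMI in 25 of 38 Tom positive neutrophils (65.8%) and 21 of 115 Tom negative ones (18.3%), and in 34.2% and 9.57% at 1000 UMIs. Thinned Col1a1 barcodes gave 22.6% and 4.08%. Its level was 786 and 85.1 CPM, a ratio of 9.23 (6.20 to 14.1). Cdkn2a, the gene of p16 and of Arf, stood at 110 CPM (18 UMIs) and 54.9 CPM (20 UMIs), a ratio of 2.00 (0.996 to 3.97), with 33.3% of the Tom positive UMIs in 1 cell. On all UMIs it had a UMI in 11 of 38 (28.9%, 15.4 to 45.9) and 16 of 115 cells (13.9%, 8.17 to 21.6), with more UMIs per cell in the Tom positive library. At 1000 UMIs it had a UMI in 5.26% and 6.09% of cells, so no difference was detectable at this depth.

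Between libraries, levels were close over most genes: across 1585 genes the Spearman correlation was 0.85, and 73.5% lay within 1.5-fold. At equal depth 14.5% of 1962 genes were past 2-fold higher and 11.8% past 2-fold lower in Tom positive neutrophils, relative to a median gene shift of 0.22 (log2). On all UMIs these shares were 4.69% and 3.22% of 1707 genes. The 12 highest genes at equal depth rested on 4 to 7 UMIs against 0 or 1, among them Pilrb1 (5 against 0) and Mgam (7 against 1), and the 12 lowest on 0 or 1 against 12 to 37, among them Clic1 (1 against 36) and Prok2 (1 against 35). Of these 24, 10 and 5 had intervals clear of a ratio of 1 on all UMIs.

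A limit of 400 CPM on all UMIs, chosen after the values were seen, left 387 genes, of which 22 were past 1.5-fold higher and 34 past 1.5-fold lower, each with its counting interval clear of 1. Among all 1707 genes at 100 CPM or more, 14.0% and 11.4% were past 1.5-fold. Chemokine ligands were on the lower side: 5 of 7 were past 1.5-fold lower in Tom positive neutrophils and 0 higher. This list and those in the next paragraph were picked after all lists were seen. The list median, relative to the median gene, was -0.75 (log2) for chemokine ligands. Most other lists also had medians below 0, such as -0.31 for 16 tumour neutrophil genes. Medians were above 0 for 15 transcription factors (0.036) and 2 immature and cycling genes (0.58). A lean to the lower side was therefore common among the lists. Ccl3, an inflammatory chemokine gene, ran from 0 through 1398 to 15199 CPM per cell in Tom positive and from 0 through 3580 to 34361 CPM in Tom negative cells, overlapping widely. Its summed level was 3599 and 7156 CPM, a ratio of 0.503 (0.459 to 0.550), with 27.7% of the Tom positive UMIs in 1 cell. Cxcl2 (0.648, 0.628 to 0.669) and Cxcl3 (0.668, 0.628 to 0.711) were also lower, while the ratio in the other barcodes was 0.882 for Ccl3, 0.648 for Cxcl2 and 1.02 for Cxcl3. For Cxcl2 the difference was therefore as large in the other barcodes. Ccl6 was at 0.956 (0.883 to 1.03). The other 2 lower ligands, Ccl9 (73.1 and 184 CPM) and Cxcl1 (12.2 and 132 CPM), stood higher in the other barcodes, at 315 and 283 CPM and at 302 and 615 CPM, and the part of free RNA in them was not tested.

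Of 12 metallothionein and oxidant defence genes 6 were past 1.5-fold lower and 0 higher. Slc7a11 was at 2010 and 3315 CPM (0.606, 0.535 to 0.685), and Hmox1 at 475 and 851 CPM (0.558, 0.430 to 0.717), with ratios of 0.794 and 1.11 in the other barcodes. Of 10 survival and death genes 5 were lower and 0 higher, among them Bcl2a1b at 658 and 1096 CPM, a near-identical copy of other Bcl2a1 genes whose reads cannot be told apart with certainty. Bcl2l1, which encodes the survival protein Bcl-xL and was on the higher side by the 400 CPM limit, was at 847 and 459 CPM (1.85, 1.46 to 2.33), with 1.38 in the other barcodes. Clec4e was at 828 and 1832 CPM (0.452, 0.373 to 0.545) and Slpi, a protease inhibitor, at 780 and 1497 CPM (0.521, 0.426 to 0.633), with 0.718 and 0.748 in the other barcodes. Spp1, osteopontin, was at 530 and 1384 CPM (0.383, 0.301 to 0.482), but it stood higher in the other barcodes, at 3544 and 5069 CPM, and the part of free RNA was not tested. Higher in Tom positive neutrophils were Id1, an inhibitor of helix-loop-helix factors, at 475 and 195 CPM (2.44, 1.74 to 3.41), Dgat1, a triglyceride synthesis enzyme, at 804 and 390 CPM (2.06, 1.61 to 2.63), and the chromatin remodeller Chd7 at 1048 and 541 CPM (1.94, 1.57 to 2.39). Their ratios in the other barcodes were 2.60, 0.819 and 1.46, so Id1 differed as much there. The difference between neutrophils and other barcodes in these ratios was not tested.

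**Figure D5:**
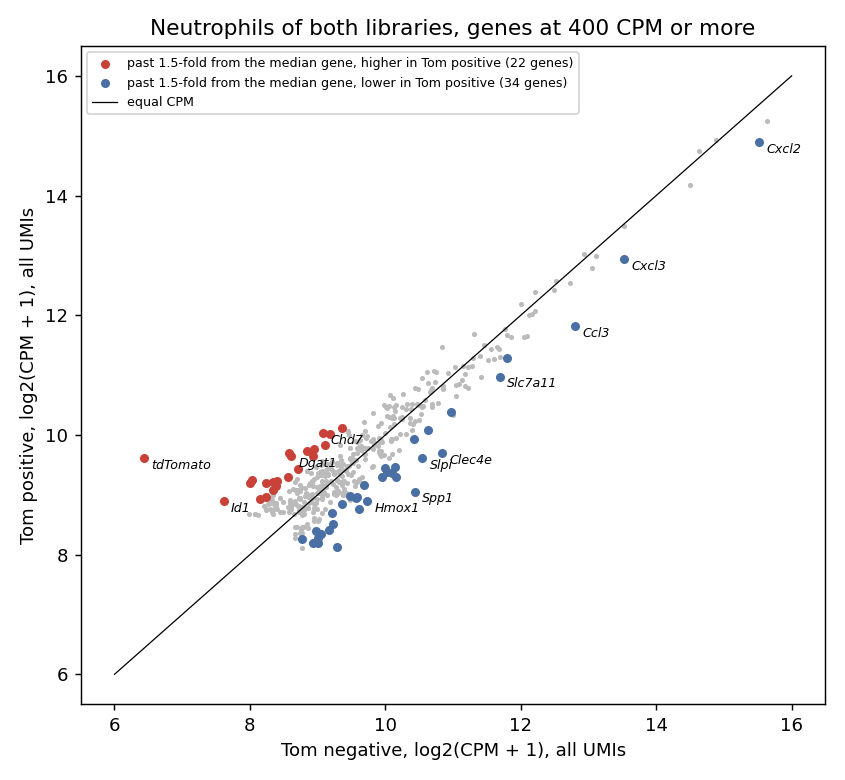
Summed level in Tom negative (x) and Tom positive (y) neutrophils, as log2(CPM + 1) of all UMIs, for genes at 400 CPM or more in a library; 22 red and 34 blue genes are past 1.5-fold from the median gene, and grey includes genes left out of the ranking. Ccl3, Cxcl2, Cxcl3, Slc7a11 and Spp1 lie below the line of equal CPM, and tdTomato, at 786 and 85.1 CPM, lies farthest above it.

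Relative to the median gene, Retnlg was lower in Tom positive neutrophils, and the intervals for Il1b and Acod1 included 0. At equal depth and relative to the median gene, Tom positive minus Tom negative was -0.58 on the log2 scale for Retnlg (-1.03 to -0.16), -0.18 for Il1b (-0.43 to 0.06) and -0.24 for Acod1 (-0.61 to 0.12). Without centring on the median gene, which shifts every value by 0.22, Il1b was at 0.04, and on all UMIs, still centred, it was at 0.05. For Retnlg the upper end of the interval, -0.16, lies nearer to 0 than this shift, so its clearance of 0 depends on centring. Before centring, Retnlg stood at 1500 and 1930 CPM at equal depth. A single Tom negative cell held 36 of the 222 Tom negative Retnlg UMIs, and the shares of Retnlg-high cells were 36.8% and 38.3%. Siglecf, which marks a subset of tumour neutrophils and also eosinophils, had 16 UMIs in 7 Tom positive and 5 UMIs in 5 Tom negative cells, with 37.5% of the Tom positive UMIs in 1 cell. Of the other 5 eosinophil markers 4 were at 0 in the Tom positive and 5 in the Tom negative library.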

How the data were processed

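The deposited files hold whole-number counts of UMIs per gene and barcode for 2 libraries of sorted tumour stroma, which the authors produced with Cell Ranger 7.0.1; both that tool and the build mm10 stand in the submitters' processing notes. The chemistry was 10x Genomics 3′, per the labels' protocols. The smallest deposited barcode had 500 UMIs; the rule that separated cells from empty droplets is not known from the labels or notes. Libraries held 128275546 (Tom positive) and 164646314 (Tom negative) UMIs, of which neutrophils held 164191 and 364156, and a count of 0 (floor of 3 counts) allows 18.3 and 8.24 CPM, or 78.9 and 26.1 CPM after thinning.

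The members and gene lists were chosen with earlier results of these data known. Cells were thinned to 1000 UMIs (seed 1) and summed per library, and log2(CPM + 1) was compared for genes at 100 CPM or more, centred on the median gene. High against low contrasts used all UMIs, and list medians are relative to the median gene. Named genes were the 12 highest and 12 lowest differences between libraries, the 8 highest and 4 lowest rank correlations with each state gene (genes with a UMI in at least 10% of cells), and up to 6 members of each of 20 lists. Left out were genes of mitochondria, ribosomal proteins and haemoglobin, predicted genes, names shared by several features, and those below 1/5 of the level of the other barcodes. The 400 CPM limit was added after the data were seen. List results were recomputed for all 20 lists, after a first draft had taken 1 list per state gene and had exchanged 1 of them once its values were known. Intervals are at 95%. Alternatives were other cell limits, seeds, depths, scalings, pseudocounts and level minimums. The calculations were tested on simulated data. Python 3.11.15, scipy 1.17.1, scanpy 1.11.5 and, for TMM factors, edgeR 4.0.16 were used.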

Additional observations from a re-analysis of the deposited data

How the results depend on the processing

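No paired analysis was possible because each group had 1 library. Leaving out a replicate was not possible for the same reason. The results rest on 38 and 115 cells, and counts of genes past 2-fold moved with depth and with the cell limits. Of the main results' values under other settings, 116 stayed within the counting interval, or for counts within 1.5 times, and 27 moved. Of the list medians 280 stayed within their spread, 25 moved and 1 reversed. The cause of a move was not tested unless a setting has fewer cells or genes by construction.

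The share ratio left its interval only with C1qa, C1qb and Col1a1 under 500 CPM (10 and 49 cells), at 0.312. Genes past 2-fold higher and lower, 284 and 231, became 810 and 793 under that limit, 150 and 85 under 2000 CPM, 151 and 110 at a minimum of 2000 UMIs, 136 and 62 with no Col1a1 limit (added after seeing the data), 80 and 55 on all UMIs, 803 and 649 at 50 CPM, 2395 and 3338 with no minimum level, and 475 and 443 at 1.5-fold. Plain CPM gave 364 and 154 and TMM factors 222 and 301, so the higher share of the genes called went from 55.1% to 70.3% and 42.4%. Under 500 CPM the log2 differences were -1.35 for Retnlg, -0.46 for Il1b and -0.89 for Acod1. Il1b was at 0.20 under 2000 CPM and 0.21 with no Col1a1 limit, and Acod1 at -0.66 with S100a8 plus S100a9 at 20000 CPM.

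The state shares moved with the start of high. With at least 1 UMI, Il1b-high cells were 73.7% and 73.9% and Tom negative Acod1-high cells 63.5%, and at 2000 UMIs Tom negative Retnlg-high cells were 50.5%. Some of the 24 genes with the greatest differences at equal depth reversed. Others only lost their difference. Under 500 CPM, Pilrb1, Aoah, Edn1, Senp1 and Mgam each stood at -0.70, and Aoah was at -0.25 with S100a8 plus S100a9 at 20000 CPM. Senp1 was at -0.24 with another random seed. These values match the centring shifts of 0.70, 0.25 and 0.24 with the sign turned. The log2 differences of these genes before centring were therefore 0, and their negative sign comes from centring alone. A difference of 0 also arises when a gene has no UMI in either library, so equal levels were not shown. With another random seed U2af2 reversed to -0.63, Tubb5 to 0.46, Lrp10 to 0.76 and Lrrc25 to 0.35, and the rank correlation of Egr1 with Retnlg in Tom positive cells to 0.031. Of the other rank correlations 146 stayed and 9 moved. With another random seed, S100a9 with Retnlg was at 0.43 and Slfn2 with Acod1 at 0.041 in Tom positive cells, and Hk2 with Retnlg was at -0.11, C5ar1 with Il1b at 0.14, Bnip3 with Il1b at -0.14 and Tnfaip3 with Acod1 at 0.16 in Tom negative cells. At 2000 UMIs, Cd80 with Il1b was at 0.085 in Tom positive cells, and Abtb2 at 0.023 and Rgs2 at -0.087 with Acod1 in Tom negative cells. The median of interferon-induced genes in Tom positive Il1b-high cells reversed to -0.81 when the cells highest and lowest in Il1b by CPM were compared.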
